A study of Danio rerio with 12 samples.

Results

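The integrated stress response (ISR) and the cytosolic aminoacyl-tRNA synthetases were described here in whole zebrafish larvae exposed to tributyltin chloride (TBT), an organotin biocide. The genes were taken by name: 42 names were listed, 41 were found in the table (wars was not found under that name), and larsa stood for 2 gene IDs, which gave 42 gene IDs of 26816. Of these, 19 were cytosolic synthetases and 23 were other genes of the response. The list had been selected on the values at 100 nM against control in these same libraries, so that comparison is given as a description, with no p-value for a listed gene. The 12 libraries came from wild-type larvae collected 5 days after fertilization (dpf) and exposed through the water from 2 to 5 dpf to TBT at 0 (control), 3, 30 or 100 nM. All 4 groups carried 0.2% dimethyl sulfoxide as solvent. Each group had 3 libraries, each from a pool of 10 whole larvae, and no label states whether pools were from different clutches or exposures, so p-values reflect variation between pools that may be technical.

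In the ISR, kinases that sense different stresses phosphorylate the translation initiation factor eIF2 on its alpha subunit, which lowers general protein synthesis while favouring translation of a few mRNAs, among them that of the transcription factor ATF4. ATF4 raises the transcription of genes for amino acid synthesis, amino acid uptake and tRNA charging. It also raises that of a stress-induced phosphatase subunit that helps to reverse the phosphorylation of eIF2. Aminoacyl-tRNA synthetases attach each amino acid to its tRNA, and cytosolic and mitochondrial protein synthesis rely largely on separate synthetase genes. These steps are known mainly from mammalian cells and yeast.

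Values were deposited normalised counts, whose sum per library was between 26515823 and 35772586. The total of counts assigned to genes before normalisation could be estimated from the spacing of low values in 7 of the 12 libraries. It lay there between about 23800000 and 49700000. Of the 100 nM libraries, only replicate 3 allowed this estimate. All 42 genes reached 10 normalised counts in 3 or more libraries, the filter for testing, which 22404 genes passed. A gene was called higher or lower where limma's linear model on log2(normalised count + 1) gave a Benjamini-Hochberg adjusted p under 0.05 over all genes tested. Fold changes are on that log2 scale unless a ratio of group means is named, and they understate the change of low genes. In bulk RNA, fewer cells of a type and less RNA per cell cannot be told apart.

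At 100 nM, 30 of the 42 genes were called higher than in the control and 0 lower, where 9.63% of all genes tested were called higher and 7.9% lower. The genes called higher were both eIF2 phosphatase subunits, though not the kinase eif2ak3 listed with them, and all 6 transcription factors. They also included 2 of 3 effectors, 6 of 7 amino acid and one-carbon enzymes, 2 of 4 transporters and 12 of 19 cytosolic synthetases. All 3 libraries at 100 nM lay above all 3 control libraries for 32 of the 42 genes, against 14.5% of all genes. For 26 of the 42 they lay above all 9 libraries of the other groups, against 8.5% of all genes. Since these values led to the list, the shares describe it and support nothing further. A fit of the 2 groups alone called 19 of the 42, leaving out cars, dars, gars, kars, vars, yars, cebpg, psph, mthfd2, cth and slc7a5. The 12 genes not called were larsb, both larsa IDs, rars, sars, qars, hars, eif2ak3, chac1, shmt2, slc3a2a and slc3a2b. This depended on the fit: with replicate number as a block, hars, qars and sars were called higher too, as given at the end.

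**Figure D1:**
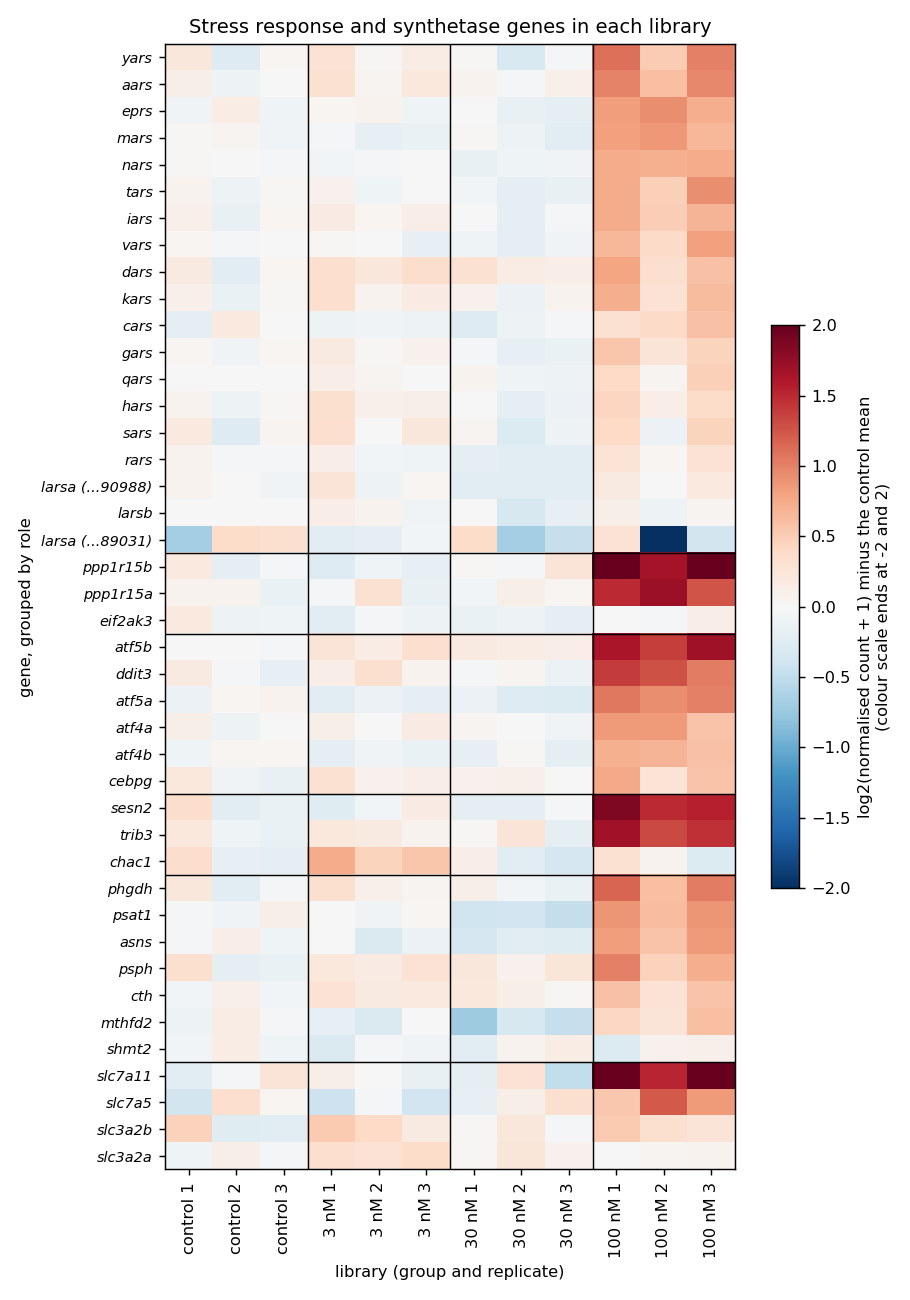
Heatmap of log2(normalised count + 1) minus the control mean for the 42 genes (rows, grouped by role) in the 12 libraries (columns), with the colour scale ending at -2 and 2. The 3 columns of 100 nM are red for most rows, while larsb, eif2ak3, shmt2 and slc3a2a stay near white there.

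The largest ratio to control in the list belonged to a gene that acts to end the response. Ppp1r15b (ENSDARG00000068128) encodes a regulatory subunit that directs protein phosphatase 1 to eIF2 and is known in mammals as the constitutive form. Its normalised counts in replicates 1, 2 and 3 were 180, 139 and 154 in the control, 131, 148 and 140 at 3 nM, 160, 155 and 188 at 30 nM, and 925, 498 and 820 at 100 nM. The 3 libraries at 100 nM stood above the other 9, with replicate 2 the lowest of them. The mean at 100 nM was 4.74 times that of the control, a log2 fold change of 2.20 ± 0.20 (SE, n = 3 per group). Ppp1r15a (ENSDARG00000069135), known in mammals as the stress-induced subunit GADD34, had counts of 966, 965 and 844 in the control, 903, 1136 and 833 at 3 nM, 892, 1006 and 948 at 30 nM, and 2604, 3021 and 2216 at 100 nM. Here replicate 2 was the highest of the 100 nM libraries, and the ratio of means was 2.83. Eif2ak3 encodes PERK, the eIF2 kinase of the endoplasmic reticulum. Its counts were 1031, 833 and 842 in the control and 890, 872 and 989 at 100 nM, groups that overlapped, with a ratio of means of 1.02.

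All 6 transcription factors of the list were called higher at 100 nM. Atf5b (ENSDARG00000077785) and atf5a encode copies of ATF5, a factor that, like ATF4, is translationally favoured when eIF2 is phosphorylated. Atf5b had counts of 819, 824 and 803 in the control, 972, 903 and 1034 at 3 nM, 928, 906 and 895 at 30 nM, and 2529, 2123 and 2632 at 100 nM. Its paralog atf5a had 705, 787 and 807 in the control, 656, 708 and 668 at 3 nM, 707, 637 and 633 at 30 nM, and 1586, 1466 and 1537 at 100 nM. Both were separated at 100 nM from the other 9 libraries, with ratios of means of 2.98 for atf5b and 2.00 for atf5a. Atf4a had a mean of 5172 ± 402 in controls and 8786 ± 939 in the 100 nM group (SD, n = 3 each), and atf4b 3563 ± 174 and 5630 ± 238. Their mRNA levels do not show how much ATF4 protein was made. Ddit3, which encodes CHOP, a factor known for promoting cell death under lasting stress, had means of 1036 ± 121 and 2437 ± 317. Cebpg, which encodes a dimer partner of ATF4, had the smallest change of the 6, with counts of 2315, 1912 and 1816 in the control and 3384, 2429 and 2973 at 100 nM and a log2 fold change of 0.53 ± 0.13 (SE).

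Of the 3 effectors, sesn2 and trib3 were called higher and chac1 was not. Sesn2 (ENSDARG00000070012) encodes sestrin 2, which in mammals restrains mTORC1 signalling when leucine is low. Its counts were 243, 165 and 173 in the control, 161, 183 and 214 at 3 nM, 166, 169 and 187 at 30 nM, and 702, 538 and 565 at 100 nM, a ratio of means of 3.11 to control. Trib3, a pseudokinase that in mammals inhibits ATF4 and CHOP, had means of 997 ± 136 in the control and 2792 ± 350 at 100 nM (SD, n = 3 each). Chac1 (ENSDARG00000070426) encodes an enzyme that degrades glutathione and is a common marker of ATF4 and CHOP activity in mammalian cells. Its counts were 11605, 8093 and 8046 in the control, 15159, 12459 and 13436 at 3 nM, 10011, 7856 and 7205 at 30 nM, and 11223, 9612 and 7514 at 100 nM. The 100 nM libraries fell within the spread of the controls or next to it, and the highest chac1 counts were those at 3 nM.

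**Figure D2:**
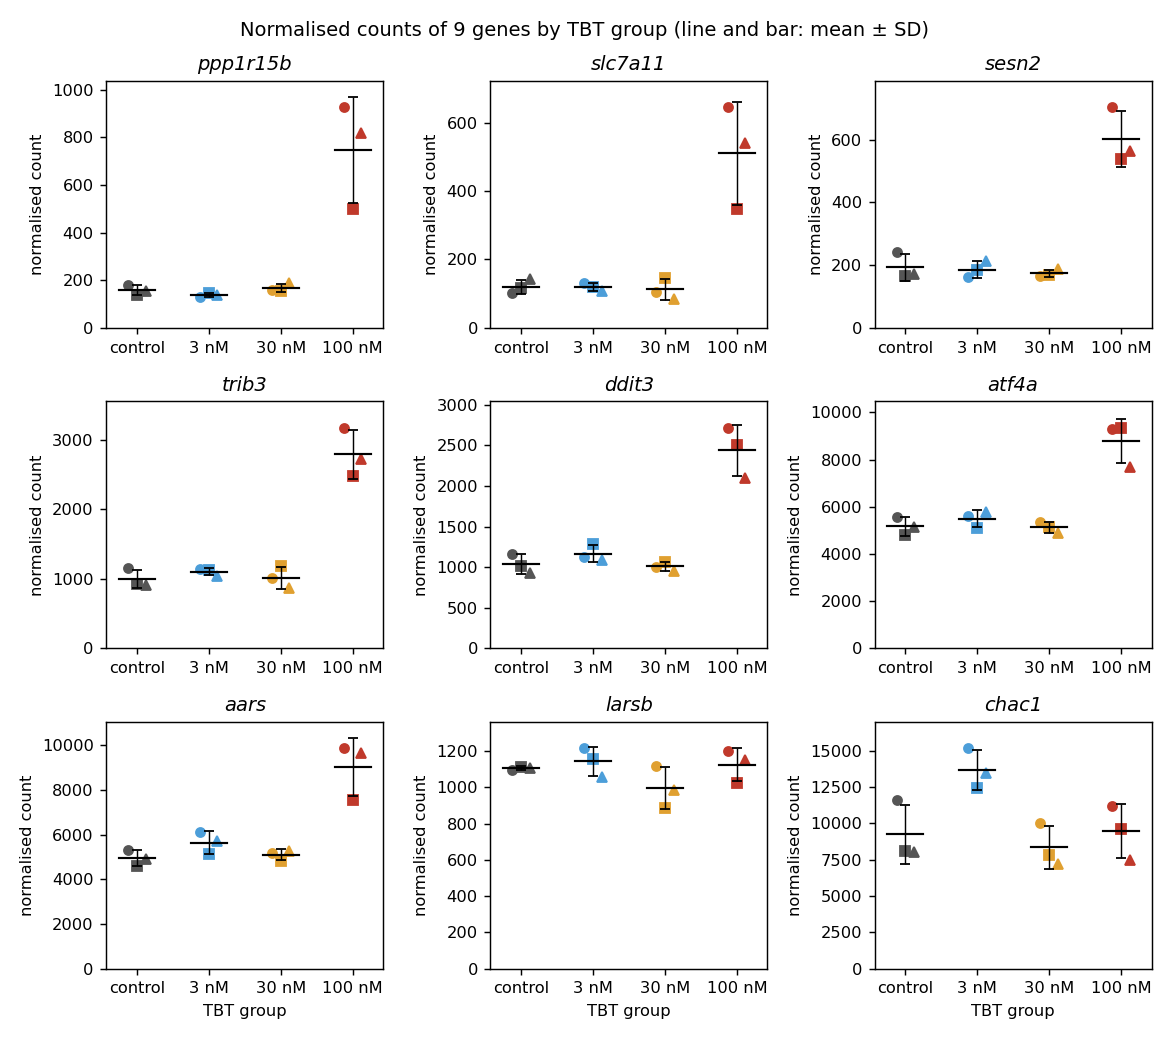
Normalised counts of 9 genes (vertical axes, starting at 0) in the 4 TBT groups (horizontal axes), with circle, square and triangle for replicates 1, 2 and 3 and a line and bar for mean ± SD. For ppp1r15b, slc7a11, sesn2, trib3, ddit3, atf4a and aars the 3 libraries at 100 nM lie above the other 9, whereas larsb and chac1 overlap with the control.

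Among the enzymes, the serine synthesis genes were called higher at 100 nM. Phgdh (ENSDARG00000001873), which catalyses the first step of serine synthesis from glycolytic intermediates, had counts of 1122, 827 and 940 in the control, 1196, 1026 and 994 at 3 nM, 1041, 922 and 874 at 30 nM, and 2142, 1455 and 1951 at 100 nM. Psat1 (ENSDARG00000016733), the transaminase of the next step, had 615, 602 and 682 in the control, 626, 599 and 646 at 3 nM, 480, 484 and 456 at 30 nM, and 1170, 968 and 1167 at 100 nM. The 3 values of psat1 at 30 nM were the lowest of all 12, and those at 100 nM the highest. Psph, the phosphatase of the last step, went from a mean of 520 ± 105 to 863 ± 163 (SD, n = 3 each). Asns (ENSDARG00000016375), asparagine synthetase, had counts of 641, 720 and 618 in the control, 663, 536 and 605 at 3 nM, 524, 567 and 556 at 30 nM, and 1174, 983 and 1190 at 100 nM, with no overlap between 100 nM and the rest. Ratios of means at 100 nM to control were 1.92 for phgdh, 1.74 for psat1, 1.69 for asns and 1.66 for psph. Cth, which makes cysteine from cystathionine, had a ratio of 1.40.

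The list also held 2 mitochondrial one-carbon enzymes. Mthfd2, which oxidises folate-bound one-carbon units in mitochondria, had counts of 619, 738 and 644 in the control, 593, 546 and 662 at 3 nM, 404, 532 and 485 at 30 nM, and 885, 799 and 1013 at 100 nM, and it was called higher at 100 nM, a log2 fold change of 0.43 ± 0.13 (SE). Shmt2, which feeds that pathway from serine, had 907, 1039 and 881 in the control and 777, 994 and 1009 at 100 nM, groups that overlapped, with a log2 fold change of -0.03 ± 0.14. The difference between these genes was not tested, and mthfd2 lost its call under 12 of 20 alternative settings.

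Of the 4 transporter genes, the 2 light chains were called higher at 100 nM and the 2 heavy chain genes were not. Slc7a11 (ENSDARG00000071384) is the light chain of the cystine and glutamate exchanger. Its counts were 103, 116 and 143 in the control, 130, 120 and 108 at 3 nM, 106, 147 and 85 at 30 nM, and 644, 346 and 540 at 100 nM, a ratio of means of 4.23. Slc7a5, the light chain of a transporter of large neutral amino acids, had 412, 675 and 545 in the control and 776, 1249 and 959 at 100 nM, a ratio of 1.83. Both light chains pair with the heavy chain encoded by slc3a2. Slc3a2a had 3000, 3441 and 3111 in the control, 3998, 3891 and 4110 at 3 nM, 3223, 3769 and 3388 at 30 nM, and 3188, 3294 and 3345 at 100 nM. Slc3a2b had 6089, 3737 and 3813 in the control, 6382, 5810 and 5008 at 3 nM, 4504, 5189 and 4306 at 30 nM, and 6384, 5536 and 5271 at 100 nM. For both heavy chain genes the control and 100 nM libraries overlapped.

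Of the 19 cytosolic synthetase IDs, 12 were called higher at 100 nM, with log2 fold changes from 0.42 for gars to 0.87 for yars. Yars (ENSDARG00000035913), the tyrosyl enzyme, had counts of 1702, 1210 and 1485 in the control, 1769, 1471 and 1613 at 3 nM, 1481, 1172 and 1421 at 30 nM, and 3107, 2065 and 2909 at 100 nM. Aars (ENSDARG00000069142), the alanyl enzyme, had 5326, 4597 and 4908 in the control, 6099, 5113 and 5717 at 3 nM, 5193, 4810 and 5275 at 30 nM, and 9851, 7527 and 9658 at 100 nM. In both, 100 nM replicate 2 was the lowest of its group and still above the 9 other libraries. Eprs (ENSDARG00000060494), which charges both glutamyl and prolyl tRNA, had 3865, 4526 and 3853 in the control, 4197, 4283 and 3824 at 3 nM, 4031, 3670 and 3591 at 30 nM, and 7280, 7760 and 6699 at 100 nM. Ratios of means to control were 1.84 for yars, 1.82 for aars and 1.78 for eprs. The asparaginyl gene nars had the smallest standard error of the synthetases, with means of 2161 ± 49.5 in the control and 3592 ± 63.5 at 100 nM (SD, n = 3 each).

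The leucyl genes were not called. Larsb (ENSDARG00000019280) had counts of 1093, 1113 and 1106 in the control, 1214, 1157 and 1054 at 3 nM, 1114, 883 and 984 at 30 nM, and 1200, 1024 and 1151 at 100 nM. The larsa ID ENSDARG00000090988 had 271, 255 and 245 in the control, 307, 239 and 263 at 3 nM, 221, 220 and 220 at 30 nM, and 290, 258 and 295 at 100 nM. Control and 100 nM overlapped for both. The larsa ID ENSDARG00000089031 was much lower, at 23, 49 and 47 in the control, 32, 33 and 36 at 3 nM, 49, 23 and 27 at 30 nM, and 46, 8 and 29 at 100 nM. Reads may be split between IDs of the same name, so the values of both larsa IDs are uncertain. Mars and ddit3 are direct neighbours among protein-coding genes in RefSeq's GRCz12tu assembly, and the labels do not state whether the counting used strand.

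**Figure D3:**
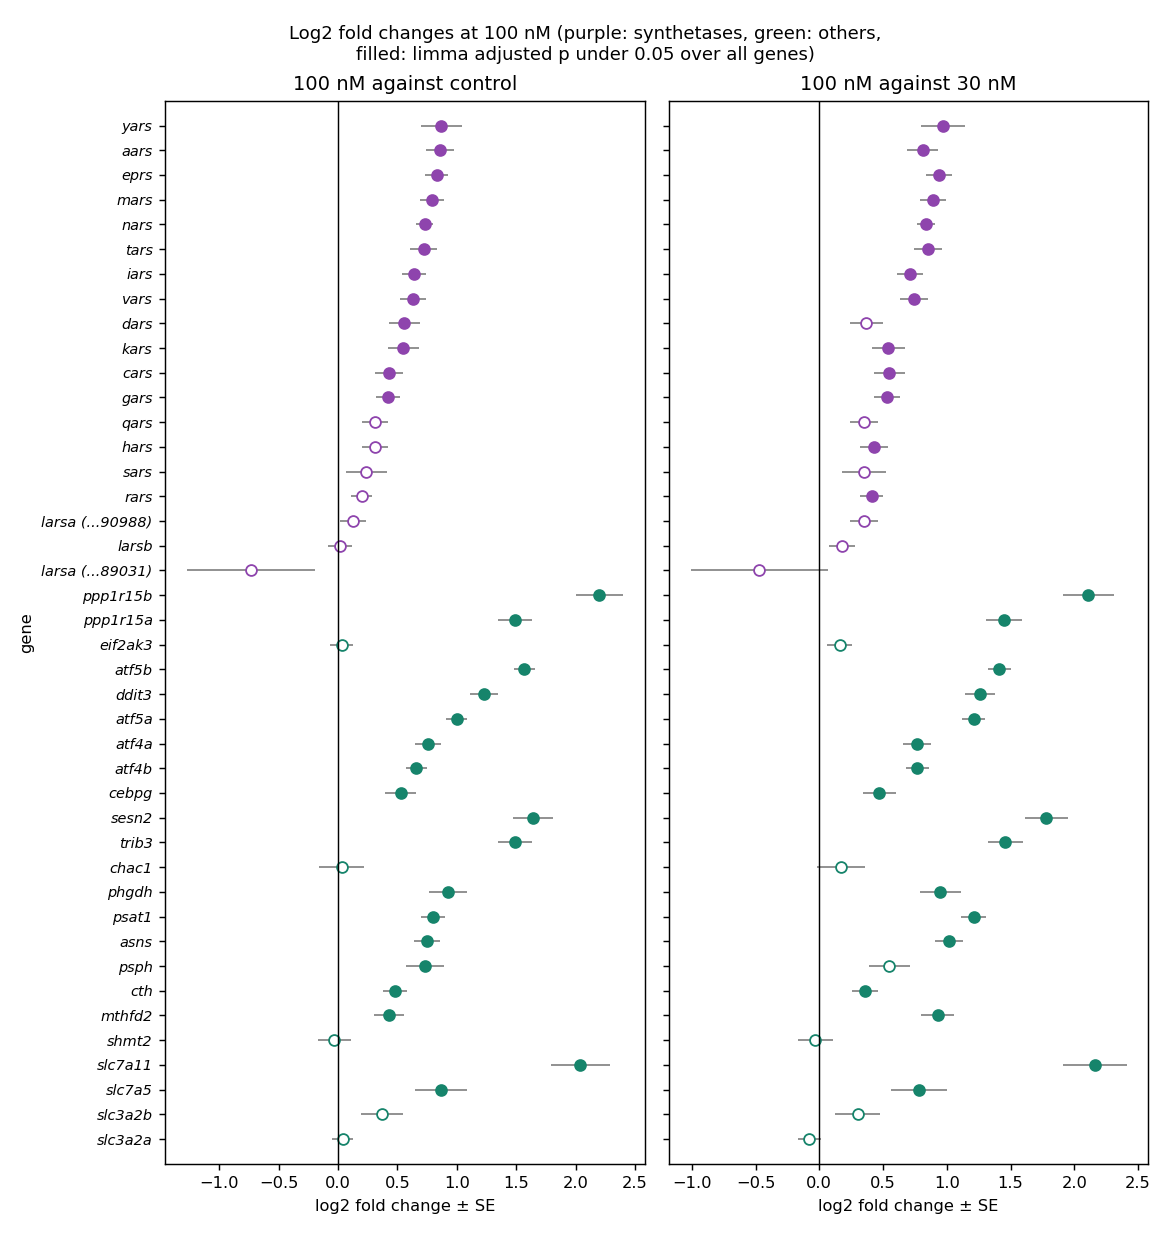
Log2 fold change ± SE of the 42 genes (rows) for 100 nM against control (left) and against 30 nM (right), with synthetases in purple, the other genes in green and filled points for limma adjusted p under 0.05 over all genes. Synthetases reach at most 0.87 against control, and ppp1r15b and slc7a11 lie at 2.20 and 2.04.

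Side by side, the synthetases had the lower median change at 100 nM. The median log2 fold change against control was 0.55 over the 19 synthetases and 0.76 over the 23 other genes, against -0.02 over all genes tested. With all libraries scaled to the same total, the median of all genes was -0.20, and the lists lay 0.57 and 0.78 above it. A ratio of means of at least 2 was found for 0 of the 19 synthetases and 7 of the 23 others. These were ppp1r15a, ppp1r15b, atf5b, ddit3, trib3, sesn2 and slc7a11, with atf5a just under 2 before rounding. The share of all genes with such a ratio was not counted. Taken by library, the synthetase median relative to the control mean was 0.671, 0.322 and 0.586 in replicates 1, 2 and 3 at 100 nM, and that of the other genes 0.851, 0.614 and 0.846. Within-group SDs of such library medians, pooled over the 4 groups, were 0.111 and 0.087. In both lists the medians at 100 nM spread more widely than those of any other group. Replicate 2 was lowest in both. At 100 nM it was the lowest of the 3 libraries for 30 of the 42 genes, and for 43.3% of all genes tested. For the synthetases, the median of replicate 2 was also the lowest in the control (-0.042) and at 30 nM (-0.183), but not at 3 nM. For the other genes, it was also the lowest at 3 nM (0.005), but not in the control or at 30 nM. The difference between the lists was not tested. Synthetases that in mammals belong to the multisynthetase complex were called higher for 5 of 10 IDs (median 0.43). Those outside it were called higher for 7 of 9 (median 0.63), where 9.63% of all genes tested were called higher. The complex list held larsb (0.02) and both larsa IDs (0.13 and -0.73), which were not called, and the larsa values are uncertain. This grouping was made after the values were seen, and its difference was not tested.

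**Figure D4:**
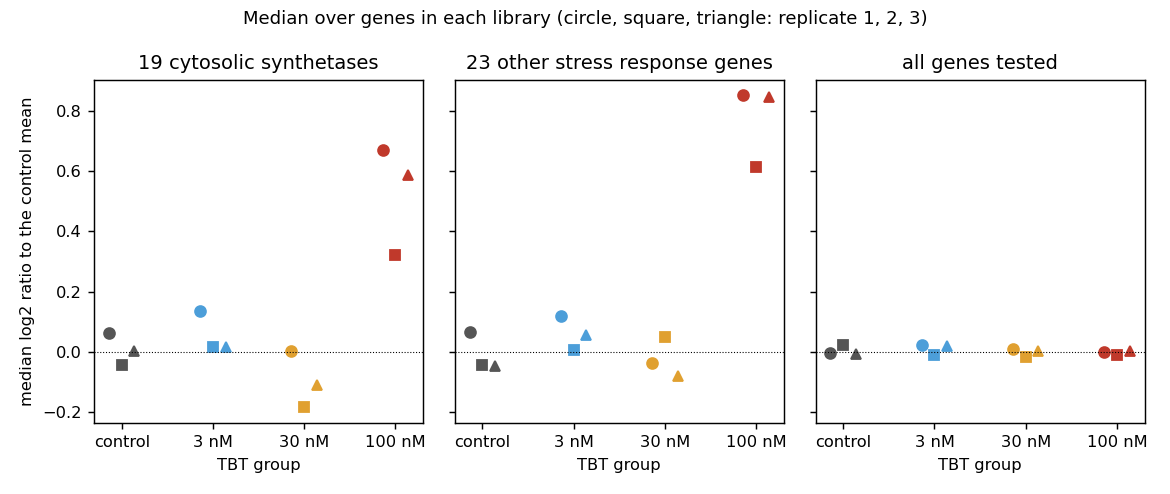
Median log2 ratio to the control mean (vertical axis) over 19 synthetases, 23 other stress response genes and all genes tested, in each library of the 4 TBT groups, with circle, square and triangle for replicates 1, 2 and 3. At 100 nM the synthetases lie between 0.322 and 0.671 and the other genes between 0.614 and 0.851.

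Some calls at 100 nM against control changed when 1 library was left out, with log2 fold changes between 0.28 and 0.89 there. Without 100 nM replicate 1, dars (log2 fold change 0.45, with all libraries 0.56), gars (0.35 and 0.42) and kars (0.46 and 0.55) were no longer called. Cars lost its call when either control replicate 1 or 3, or 100 nM replicate 3, was left out (0.33 to 0.43, with all libraries 0.43). Cebpg lost it when control replicate 3, or 100 nM replicate 1 or 3, was left out (0.42 to 0.52, with all libraries 0.53). Slc7a5 lost it without control replicate 3, although its fold change was 0.89 there and 0.87 with all libraries. Mthfd2 lost it without control replicate 1 or 3, any 3 nM library, 30 nM replicate 3, or 100 nM replicate 1 or 3 (0.34 to 0.44, with all libraries 0.43), so its call lay at the threshold. Conversely, hars (0.40), qars (0.44) and rars (0.28) were called without 100 nM replicate 2, and slc3a2b (0.60) without control replicate 1. For hars, qars and rars, replicate 2 was the lowest library in the control as well. Leaving out 1 library makes the replicate numbers uneven between the groups.

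At 30 nM, limma called 0 of the 42 genes in either direction, where 0.379% of all genes were called higher and 0.152% lower. This depended on the fit: with replicate number as a block, psat1 and mthfd2 were called lower at 30 nM, as given at the end. At an unadjusted p under 0.05, 0 were higher (5.16% of all genes) and 4 were lower (4.52% of all genes), namely psat1, mthfd2, asns and atf5a. Their log2 fold changes were -0.42 for psat1 (limma adjusted p = 0.109), -0.50 for mthfd2 (0.175), -0.26 for asns (0.473) and -0.22 for atf5a (0.442). For psat1, mthfd2 and asns, all 3 libraries at 30 nM lay below all 3 controls. The same held for nars, rars, vars and the larsa ID ENSDARG00000090988, while for atf5b they lay above all 3 controls. The share of all genes separated in this way at 30 nM was not counted, so these separations are description only. The median over the synthetases was -0.11, and that over the other genes -0.01.

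At 3 nM, limma called 0 of the 42 genes, with 0.00446% of all genes called higher and 0.0357% lower. This depended on the fit: with replicate number as a block, chac1 and slc3a2a were called higher at 3 nM, as given at the end. At an unadjusted p under 0.05, 4 genes were higher (5.03% of all genes) and 0 lower (5.61% of all genes). These were chac1 (log2 fold change 0.58, limma adjusted p = 0.399), slc3a2a (0.33, 0.341), atf5b (0.25, 0.426) and dars (0.30, 0.46). For chac1 and slc3a2a the 3 libraries at 3 nM lay above those of the control and also above those at 30 and 100 nM. For atf5b, dars, cth and hars, too, they lay above those of the control. The share of all genes separated in this way at 3 nM was not counted, so these separations are description only. Medians were 0.06 for the synthetases and 0.04 for the others, against 0.01 over all genes tested. With libraries scaled to the same total they were -0.03 and -0.05, where the median of all genes was -0.08.

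Between 100 and 30 nM, 30 of the 42 genes were called higher and 0 lower, where 5.29% of all genes were called higher and 3.95% lower. This comparison uses the same 100 nM libraries as the one that led to the list, and is not independent of it. Ppp1r15b was higher by 2.11 on the log2 scale (limma adjusted p = 0.000202), slc7a11 by 2.16 (0.000435), sesn2 by 1.78 (0.000196) and atf5b by 1.41 (2.9e-05). Of the serine and asparagine genes, psat1 was higher by 1.21 (8.9e-05), asns by 1.02 (0.000357) and phgdh by 0.95 (0.00373). Synthetases were called for 13 of 19 IDs (median 0.54), among them nars (0.84, 0.000101), eprs (0.94, 0.000318), mars (0.89, 0.000321) and yars (0.97, 0.00531). The other genes were called for 17 of 23 (median 0.93). Hars (0.43, 0.029) and rars (0.41, 0.0202) passed here and not against the control, whereas dars (0.37, 0.125) and psph (0.55, 0.0519) passed only against the control; the differences between these comparisons were not tested.

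Some calls against 30 nM also changed when 1 library was left out. Cars lost its call without 30 nM replicate 1 (log2 fold change 0.49 there and 0.55 with all libraries, limma adjusted p = 0.0586). Hars, kars and rars lost it without any one of the 30 nM libraries, 100 nM replicate 1 or 100 nM replicate 3, with limma adjusted p of at most 0.11, 0.098 and 0.0745. Their fold changes there were 0.37 to 0.47 for hars, 0.45 to 0.58 for kars (0.54 with all libraries) and 0.37 to 0.42 for rars. With all libraries, cebpg (0.47, limma adjusted p = 0.0478), cth (0.36, 0.0485) and slc7a5 (0.78, 0.0453) lay at the threshold, and each lost its call on leaving out any of 9 libraries. For cebpg (0.36 to 0.48) and cth (0.31 to 0.41) these were control replicate 3, the 3 nM and 30 nM libraries, and 100 nM replicates 1 and 3 (adjusted p at most 0.153 and 0.177 by limma). For slc7a5 (0.60 to 0.90) they were control replicate 3, the 3 nM and 30 nM libraries, and 100 nM replicates 2 and 3 (at most 0.156).

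Other genes of the same processes were read from lists of companions at 100 nM against control, where 9.63% of all genes tested were called higher and 7.9% lower. All companion lists were chosen with earlier results of these data known. Most genes named from them were those with the lowest p in this same comparison. Their counts and p-values therefore describe the lists and are not independent support for the response. Of 16 mitochondrial synthetases tested, limma called 0, with 0 higher and 2 lower at an unadjusted p under 0.05, and their log2 fold changes ran from -0.40 for mars2 (adjusted p = 0.0874) to 0.18, with a median of -0.10. With so few genes, the count of 0 is too small a basis for a comparison with the share over all genes, which was not tested. Cytosolic phenylalanyl synthetase has 2 subunits, and farsa (0.66 ± 0.11, limma adjusted p = 0.00213) and farsb (0.57 ± 0.10, 0.00323) both rose. So did aimp2, a scaffold of the multisynthetase complex (0.62 ± 0.11, 0.00398), while eef1e1, another of its parts, had -0.32 (0.129).

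**Figure D5:**
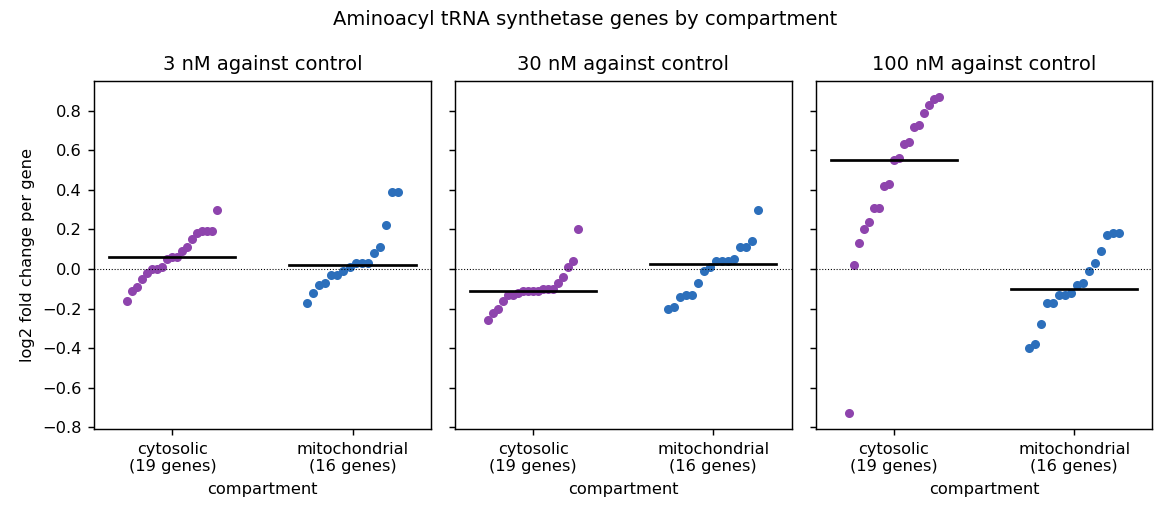
Log2 fold change against control (vertical axis) of each cytosolic (purple, 19 IDs) and mitochondrial (blue, 16 genes) synthetase at 3, 30 and 100 nM, with a line at the median. At 100 nM the medians are 0.55 and -0.10.

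The list of eIF2 kinases, eIF2 and its exchange factor eIF2B also held impact, nck1a and nck1b, which are none of these. Of its 14 genes, 5, nck1a among them, were called higher and 0 lower at 100 nM (median 0.37), beside 9.63% and 7.9% of all genes. Nck1a, an adaptor, had counts of 555, 416 and 448 in the control and 1070, 887 and 1019 at 100 nM (log2 fold change 1.07, limma adjusted p = 0.000156). Eif2b4, a subunit of eIF2B, had 1409, 1055 and 1197 and then 2645, 1984 and 2270 (0.91, 0.00134). In both the groups did not overlap. Eif2ak1, the haem-regulated kinase, had 493, 430 and 487 and then 775, 559 and 738 (0.54, 0.0134), and eif2s3, a subunit of eIF2, rose by 0.48 (0.0161). Without 100 nM replicate 1 or 3, neither was called, at 0.0541 and 0.052 for eif2ak1 and 0.0591 and 0.05 for eif2s3 (limma adjusted p), though the fold changes there were 0.45 to 0.49 for eif2ak1 and 0.40 to 0.47 for eif2s3.

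Other genes known as ATF4 targets or partners were called higher for 19 of 39 and lower for 2, jdp2b and tdg.1 (median 0.43). The remaining 18 were not called, and the genes given below with values are only the 4 with the lowest p. Over all genes tested at 100 nM, 9.63% were called higher and 7.9% lower. Slc1a5, a glutamine transporter, had 1773, 1376 and 1413 in the control and 3569, 3232 and 2968 at 100 nM (a ratio of means of 2.14, limma adjusted p = 9.83e-05). Slc1a4, a transporter of small neutral amino acids, rose by 1.41 on the log2 scale (0.00041), the transcription factor atf3 by 1.64 (0.000534) and the autophagy receptor sqstm1 by 1.69 (0.000825). Of the other arms of the unfolded protein response, which share the endoplasmic reticulum as their origin with PERK, 4 of 11 genes were called higher and 0 lower (median 0.13). They were dnajb9b (1.06, limma adjusted p = 0.000834), creb3l3l (0.51, 0.000919), xbp1 (0.75, 0.00418) and atf6 (0.58, 0.0112). Hspa5, the main chaperone of that compartment, had -0.02 (0.946). In a fit of the 2 groups alone xbp1 and atf6 were not called, nor were farsb, aimp2, eif2ak1 and eif2s3, and atf6 was not called with equal totals either.

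Markers of 6 tissues and cell types were read at 100 nM against control, where 9.63% of all genes were called higher and 7.9% lower. Exocrine pancreas markers, a tissue known for high protein synthesis, were called lower for 8 of 16 (median log2 fold change -1.57). Their summed normalised counts ranged from 150446 to 246133 in the control. At 100 nM the sums were 38138, 156330 and 100094 in replicates 1, 2 and 3, so replicate 2 lay within the control range. Replicate 1 was the lowest 100 nM library for 15 of the 16 markers. The median over these markers was -0.77 at 30 nM and -0.64 at 3 nM, with 0 of 16 above 0 at either dose. By limma, 0 of 16 were called at 30 or 3 nM, where 0.152% and 0.0357% of all genes were called lower. Erythrocyte markers were called higher for 3 of 4 (sums of 5437 to 10815 in the control, then 8467 to 15523 at 100 nM). The genes called were slc4a1a, alas2 and gata1a. Most of the sum came from hbbe1.1, which was not called (log2 fold change 0.49, limma adjusted p = 0.314). Liver markers were called higher for 2 of 11 (204078 to 231307, then 201872 to 279281), muscle markers for 1 of 7 (1145906 to 1424219, then 1382086 to 1838980), and neuron markers for 0 of 5 by limma, with 0 at an unadjusted p under 0.05 (14940 to 31250, then 14112 to 21916). Intestine markers were called higher for 2 of 9 and lower for 1 (40042 to 79987, then 36773 to 61035). None of the markers was at 0 in every library. Their part in the values of the stress response and synthetase genes was not tested.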

How the data were processed

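RNA of pooled whole larvae was sequenced in 12 stranded poly(A) libraries. Tools listed in the submitters' processing notes, without their roles, were STAR 2.5.1b, RSEM 1.2.28, CASAVA and DESeq2 1.10.1, and the build listed was GRCz10. The deposited values were handled as a score, since the file headers call them normalised counts (whole numbers in the files) rather than raw counts. A count test had been planned only for raw counts, so limma 3.58.1 (R 4.3.3) was run on log2(value + 1) of all 12 libraries, with eBayes and a variance trend. The filter was a value of 10 or more in 3 or more libraries. Adjustment followed Benjamini and Hochberg, with 0.05 as the threshold. The method was tested on simulated data with independent libraries and no deviation shared by replicate number. That test therefore cannot show how the fit behaves where libraries of the same number deviate alike. The genes, gene lists and marker lists were chosen with earlier results of these data known. Genes were given value by value where they had the largest rise or fall at 100 nM in their role group (the 3 largest each way among synthetases and enzymes) or were a paralog of such a gene; larsb, chac1, eif2ak3, cebpg, mthfd2, slc7a5, slc3a2a, slc3a2b and nars were added after their values were seen. Companion genes were those past the threshold at 100 nM, at most 4 per list by lowest p; mars2, eef1e1, jdp2b, tdg.1 and hspa5 were added likewise. The gene name table held 40 of the 42 IDs. No sequences were used and no coordinates are given; gene order in RefSeq's GRCz12tu table served only to find neighbouring genes.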

Additional observations from a re-analysis of the deposited data

How the results depend on the processing

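No called gene reversed its direction under the 20 alternatives (pseudocounts of 0.5 and 5, no filter, a mean of at least 50, equal totals, a fit of only the 2 groups compared, no variance trend, the replicate block and each of 12 libraries left out). The medians near 0 at 3 nM were below 0 with equal totals, where the median of all genes was lower still (-0.08). Against control at 100 nM, 19 of the 30 called genes kept the call under all of these and 11 lost it under at least 1; against 30 nM, 23 kept it and 7 lost it. The fit of only the 2 groups called 19 genes at 100 nM, and farsb, aimp2, xbp1, atf6, eif2ak1 and eif2s3 were then not called. With equal totals the medians were 0.36 (synthetases) and 0.57 (others) at 100 nM against control, 0.42 and 0.81 against 30 nM, and -0.05 (others) at 3 nM; 25 genes were called in each comparison of 100 nM, and the share of higher calls among all genes went from 54.9% to 28.2% against control and from 57.3% to 35.6% against 30 nM. Leaving out 1 library gave synthetase medians of 0.46 to 0.68 at 100 nM, and medians of the others of 0.01 to 0.13 at 3 nM and 0.82 to 1.01 against 30 nM. The counts of called genes were then 25 to 33 against control and 23 to 32 against 30 nM.

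With the replicate block, 33 genes were called at 100 nM against control, 35 against 30 nM, 2 lower at 30 nM (psat1, limma adjusted p = 0.027; mthfd2, 0.0492) and 2 higher at 3 nM (chac1, 0.0305; slc3a2a, 0.036). Deviations from the group means correlated at 0.293 to 0.563 between libraries numbered 1 (6 pairs), at 0.35 to 0.578 between those numbered 2, and at -0.02 to 0.15 between those numbered 3, while the 12 pairs of number 1 with number 2 ran from -0.603 to -0.293. On average 11 of the 12 libraries correlated best with their own number, the exception being 100 nM replicate 3. Deviations within a group cancel out, so number 3 has little left to show where numbers 1 and 2 oppose each other. Its low correlations therefore cannot decide whether the libraries numbered 3 belong together. Those numbered 1, and those numbered 2, did deviate alike across the groups. The fit without the block counts these shared deviations as spread within the groups. The deposited column names also run in sets by replicate number, but no label states what a number stands for. The fit without the block was kept as the main fit. At 100 nM against control, the genes called only with the block were hars, qars and sars. The genes that the block added against 30 nM are not named here.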
